A study of Homo sapiens with 6 samples.

Results

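The genes described here are 10 messenger RNAs of the translation elongation machinery and of its close companions: EEF1A1, EEF1B2, EEF1D, EEF1E1, EEF1G, EEF2, TPT1, NACA, BTF3 and PABPC1. They were chosen by name, with earlier results of these data known, as elongation factors and as transcripts known for a 5′ terminal oligopyrimidine (TOP) start. All 10 were found among the 63677 genes of the count table, each under 1 identifier, and 9 of the 10 were among the 15492 genes with enough counts to test.

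RNA was sequenced from RPMI-8402, an established human line of T cell acute lymphoblastic leukaemia, or T-ALL. All 6 samples came from cells that stably expressed Cas9, were grown in medium with tetracycline-free serum and carry the genotype label MYC_KO. The 3 DMSO samples received the solvent. The 3 doxycycline samples were treated for 72 hours with doxycycline, which switches on guide RNAs against MYC, a transcription factor that drives growth and ribosome production. No sample that received doxycycline without guides is among those labelled, so the agent and the guides cannot be told apart. The labels do not say that replicates were separate cultures, so a p-value here measures how these samples spread, and that spread may be technical. Where 3 values are given for a group, they are replicates 1, 2 and 3 in that order.

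In elongation, eEF1A delivers each aminoacyl-tRNA to the ribosome as a complex with GTP, the eEF1B subunits recharge eEF1A with GTP, and eEF2 moves the ribosome along the message. The messages of most elongation factors and ribosomal proteins begin with a cytosine followed by a run of pyrimidines, the TOP motif, through which the mTOR kinase and the LARP1 protein set how well they are stored and translated. TOP regulation acts mainly on translation and stability, and the present measurements are of RNA only. In fast-growing lymphoid cells these messages take a large share of the RNA pool.

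The starts of the messages are shown because the TOP motif is what most of these genes are known to share. The RefSeq promoter table (GRCh38.p14) held 8 of the 10 genes, EEF1B2 with 2 starts. EEF1D and PABPC1 had no entry. Each line gives 10 bases before and 20 bases from the annotated first base, 5′ to 3′ on the gene's strand, with capitals marking a run of at least 5 pyrimidines that begins with C at that first base.
EEF1A1: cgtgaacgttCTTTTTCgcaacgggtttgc
EEF1B2 upstream start: aagtggccccagcctcgaggccgggcgtct
EEF1B2 downstream start: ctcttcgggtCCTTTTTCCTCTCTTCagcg
EEF1E1: tgcaggtctcgcgtctgccaggagctacgg
EEF1G: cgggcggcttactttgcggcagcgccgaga
EEF2: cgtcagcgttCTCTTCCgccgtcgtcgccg
TPT1: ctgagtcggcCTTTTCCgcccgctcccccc
NACA: ctcgctcggtCTTTCTgccgccatcttggt
BTF3: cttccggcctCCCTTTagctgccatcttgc

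These windows lie at chr6:73521013-73521042 on the minus strand for EEF1A1, chr2:206159599-206159628 and chr2:206159885-206159914 on the plus strand for the EEF1B2 starts, and chr6:8102529-8102558 on the minus strand for EEF1E1. The others lie at chr11:62573872-62573901 (EEF1G), chr19:3985444-3985473 (EEF2), chr13:45341164-45341193 (TPT1) and chr12:56725280-56725309 (NACA), all minus strand, and at chr5:73498432-73498461 on the plus strand for BTF3. A run of this kind stood at a start of 6 of the 8 genes, or 75.0%. The same rule held for 47 of 63 cytosolic ribosomal protein genes (74.6%), for 8 of 13 genes of a list of other TOP messages (61.5%), and for 1404 of all 27305 genes with a start in the table (5.14%). The longest run, 16 bases, was at the downstream start of EEF1B2. EEF1A1, EEF2 and TPT1 had runs of 7 and NACA and BTF3 runs of 6. EEF1E1 and EEF1G had none at the annotated base, which says only that these letters are not in this window. Which start the cells used was not measured.

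Total counts ran from 23121255 to 26214598 per sample. MYC, the targeted gene, was not lower at the RNA level. Over 3 samples it averaged 413 ± 8.01 (SD) CPM in DMSO and 440 ± 16.0 CPM in doxycycline. CPM are counts scaled by library total and TMM. Every doxycycline sample lay above every DMSO sample, as for 20.7% of all tested genes. MYC was not called (log2 fold change 0.092, edgeR adjusted p = 0.160). The RNA level does not show whether the gene was cut. All 10 T-ALL markers of a fixed list were tested, with summed levels of 3083 to 3168 CPM in DMSO and 3308 to 3436 CPM in doxycycline. Of 12 markers of B, myeloid, erythroid and fibroblast cells, 4 were tested and all 4 were called higher, their list summing to 44.9 to 47.3 CPM in DMSO and 58.3 to 63.9 CPM in doxycycline, most of it COL1A1. MS4A1, HBB and COL1A2 had 0 counts in every sample, and the part of these markers in the results was not tested. With edgeR's quasi-likelihood test, 2137 genes were higher and 2408 lower at an adjusted p under 0.05; upper-quartile scaling turned that split to 2871 and 1585, and library size alone to 2758 and 1606.

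EEF1E1 was the only gene of the 9 tested to pass the test, while EEF1A1 and EEF2, which carry out the elongation cycle, measured close to their DMSO level. EEF1E1 fell by 0.35 on the log2 scale. No member was called higher. The 1 call among 9 stands beside 29.3% of all tested genes called, 13.8% higher and 15.5% lower. Groups did not overlap for 2 of the 9, EEF1E1 and EEF1B2, both lower in doxycycline, beside 41.7% of all tested genes, 21.0% lower. The log2 fold change, doxycycline over DMSO, was below 0 in 7 of the 9, with a median of -0.095 and a range from -0.35 to 0.10, against a median of -0.00072 over all tested genes. In bulk RNA, fewer cells of a type and less RNA per cell cannot be told apart, and CPM are shares of a library, so a change in total RNA per cell would not appear in them.

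**Figure D1:**
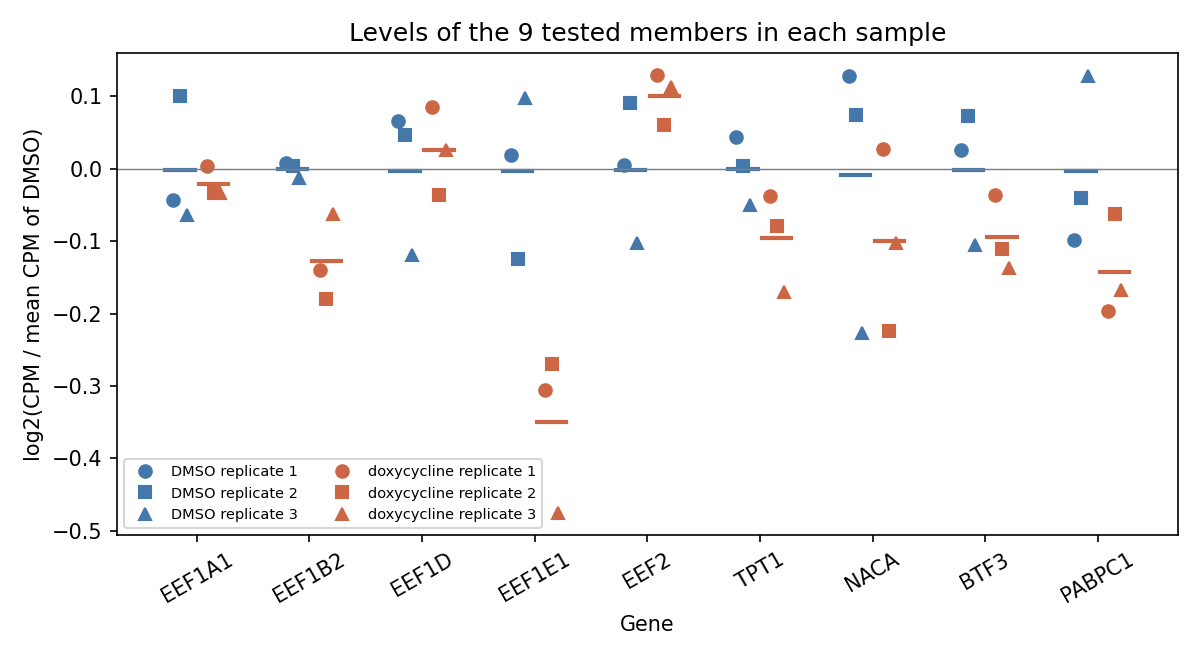
Level of the 9 tested genes in each of the 6 samples, as log2 of CPM over the gene's DMSO mean (vertical axis), with points for the 3 DMSO and 3 doxycycline samples and bars at group means. The groups separate for EEF1E1 and EEF1B2 and overlap for the other 7 genes, including EEF1A1 and EEF2.

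By share of reads 3 of the 10 messages sit at the top of the library: EEF1A1 ranked 1 by count over all libraries, PABPC1 ranked 5 and EEF2 ranked 7. NACA ranked 209, BTF3 210, TPT1 315, EEF1B2 342 and EEF1D 467, while EEF1E1 ranked 8812 and EEF1G 18616. The 10 genes together took 1.71%, 1.78% and 1.72% of all gene counts in DMSO, and 1.75%, 1.75% and 1.75% in doxycycline. The groups overlapped, and the difference of 0.00962 percentage points was smaller than the DMSO spread of 0.0358 points (SD, n = 3; exact permutation test, two-sided, p = 0.7, where 0.1 is the smallest p that 3 against 3 samples allow). EEF1A1 alone made up 0.693% ± 0.0346 of counts in DMSO and 0.704% ± 0.00557 in doxycycline. The share of EEF2 was 0.342%, 0.355% and 0.316% in DMSO and 0.378%, 0.364% and 0.379% in doxycycline, with no overlap (exact permutation p = 0.1). That of PABPC1 differed by -0.0304 points (exact permutation p = 0.4), so the total joins shifts of both signs. Shares are not scaled by TMM, and in CPM the EEF2 groups overlapped.

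EEF1A1 encodes the GTPase that brings aminoacyl-tRNA to the ribosome. It stood at 6835, 7548 and 6739 CPM in DMSO, and at 7060, 6882 and 6878 CPM in doxycycline. All 3 doxycycline samples lay inside the DMSO range, which DMSO replicate 2 set at its upper end. Its log2 fold change was -0.021 (SE 0.0574, edgeR adjusted p = 0.823), with an interval of 0.908 to 1.07 times the DMSO level. The sign was not stable: the value was 0.027 under upper-quartile scaling, 0.023 under library size alone and 0.030 without DMSO replicate 2.

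EEF2, the GTPase that carries out translocation, was one of 2 members with a value above 0. It measured 3443, 3656 and 3195 CPM in DMSO and 3754, 3578 and 3712 CPM in doxycycline. DMSO replicate 2 was above the lowest doxycycline sample, so the groups overlapped. Its log2 fold change was 0.10 (SE 0.0567, edgeR adjusted p = 0.184), with an interval of 0.990 to 1.16 times the DMSO level. EEF2 passed as higher under library-size scaling, reaching 0.15 (edgeR adjusted p = 0.0349), and without DMSO replicate 2, at 0.15 (edgeR adjusted p = 0.0399). Without DMSO replicate 3 it was at 0.051 (edgeR adjusted p = 0.535).

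The ratio of these 2 factors was lower in every doxycycline library than in every DMSO library. The log2 ratio of EEF1A1 to EEF2 counts was 0.99, 1.05 and 1.08 in DMSO and 0.91, 0.94 and 0.89 in doxycycline, a difference of -0.12 with no overlap between groups. A ratio within a library does not depend on scaling, but it does on any GC trend: with GC content and length corrected, EEF1A1 was at 0.024 and EEF2 at -0.016, which turns the order of the 2 genes. The exact permutation p was 0.1, the smallest possible, and 0.2 after Benjamini-Hochberg adjustment over 10 ratios, so the difference did not pass.

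The exchange factor eEF1B is built from the subunits encoded by EEF1B2, EEF1D and EEF1G. EEF1B2, a nucleotide exchange subunit, was at 459.7, 458.2 and 452.9 CPM in DMSO and at 415.0, 403.5 and 437.5 CPM in doxycycline. Every doxycycline sample lay below every DMSO sample, with little spread in DMSO (SD 3.55 CPM). The log2 fold change of -0.13 (SE 0.049) missed the threshold in edgeR (adjusted p = 0.0530), and EEF1B2 passed as lower with no filter on low counts (edgeR adjusted p = 0.0320) and in DESeq2 (adjusted p = 0.0119).

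EEF1D, the other exchange subunit, showed no such separation. It was at 365.7, 360.7 and 321.6 CPM in DMSO and 370.6, 340.7 and 355.8 CPM in doxycycline, with overlapping groups and a log2 fold change of 0.026 (SE 0.0538, edgeR adjusted p = 0.758). The sign of this value turned without DMSO replicate 3 (-0.032) and without doxycycline replicate 1 (-0.0035). The log2 ratio of EEF1B2 to EEF1D was 0.39 ± 0.0906 in DMSO and 0.23 ± 0.0679 in doxycycline, with no overlap between the groups, a difference of -0.15 that again reached the smallest exact permutation p of 0.1 (0.2 adjusted over 10 ratios). With GC content and length corrected, EEF1B2 was at 0.027 and EEF1D at -0.12, which turns this difference as well.

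EEF1G, the subunit that anchors the exchange complex, is an exception in the count table. It had 5, 4 and 3 counts in DMSO and 2, 3 and 1 in doxycycline, against counts of 7365 to 11704 per sample for its partners EEF1B2 and EEF1D. The sums of 12 and 6 counts give a depth-scaled ratio of 0.470 with an exact 95% interval of 0.145 to 1.35, which covers counting error only. No fold change can be read from it, and EEF1G was not tested.

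**Figure D2:**
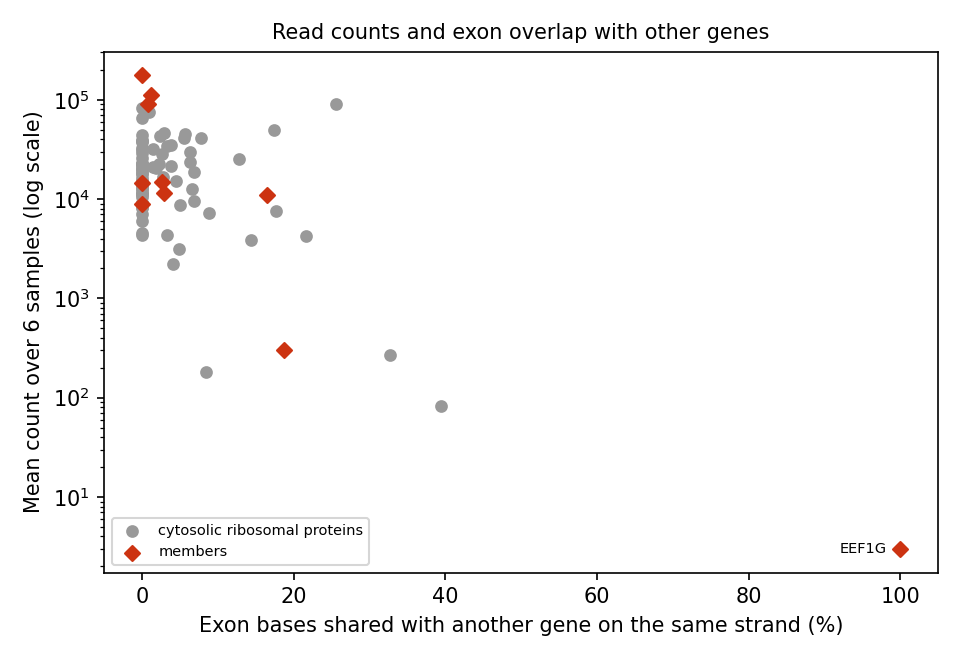
Mean count per sample (vertical log axis) against the percent of exon bases shared with another gene on the same strand in GENCODE 29 (horizontal axis), for 88 genes: the members and the cytosolic ribosomal protein genes. EEF1G stands alone at 99.9% shared and a mean of 3 counts, and the other 87 genes are under 50% with means of 83 to 176650 counts.

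The low count of EEF1G goes with a feature of the gene models. In GENCODE 29, 99.9% of the exon bases of EEF1G are also exon of 1 read-through gene on the same strand (ENSG00000255508, named MIR3654 in the authors' deposited table), which had 30 to 61 counts per sample. Of 88 members and ribosomal protein genes compared, EEF1G was the only one with at least 90% shared. EEF1E1 shares 18.7% and EEF1B2 16.4% of exon bases with same-strand neighbours, and EEF1D shares 34.0% in all with 3 genes on the opposite strand. How reads in shared exons were counted is not given in the sources used here, and whether the overlap sets the EEF1G count was not tested. The count therefore gives no level for EEF1G in these cells.

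EEF1E1 encodes a small protein, also called AIMP3, that sits in the multi-tRNA synthetase complex and resembles eEF1 subunits. It stood at 13.7, 12.4 and 14.5 CPM in DMSO and 10.9, 11.2 and 9.72 CPM in doxycycline. The groups did not overlap, and the counts behind them were 260 to 345 per sample. This is a log2 fold change of -0.35 (SE 0.0885, edgeR adjusted p = 0.00433), or 0.693 to 0.892 times the DMSO level. EEF1E1 is the member with the lowest GC content, 36.9%, and with fold changes corrected for GC content and length its value was -0.051 (edgeR adjusted p = 0.705), which ended the call.

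TPT1 encodes the translationally controlled tumour protein, a classic TOP message. It was at 484.7, 471.1 and 454.2 CPM in DMSO and at 458.1, 444.8 and 417.6 CPM in doxycycline. The highest doxycycline sample lay between DMSO replicates 2 and 3. The log2 fold change of TPT1 was -0.095 (SE 0.0507, edgeR adjusted p = 0.164), and it stayed below 0 and short of the threshold in every alternative run. The value was -0.031 with GC content and length corrected and -0.058 without doxycycline replicate 3.

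NACA and BTF3 encode the α and β subunits of the nascent polypeptide-associated complex, which meets new chains as they leave the ribosome. NACA was at 658.8, 634.4 and 515.2 CPM in DMSO and 614.3, 516.0 and 561.7 CPM in doxycycline. Its groups overlapped fully, since DMSO replicate 3 was the lowest of all 6 samples. The value was -0.096 on the log2 scale (SE 0.0699, edgeR adjusted p = 0.319); without DMSO replicate 3 NACA passed as lower at -0.20 (edgeR adjusted p = 0.00896), and with GC content and length corrected at -0.23 (edgeR adjusted p = 0.0161). In the other direction, it was at -0.029 without DMSO replicate 1 (edgeR adjusted p = 0.832) and at -0.037 without doxycycline replicate 2 (edgeR adjusted p = 0.768). The corrected value rests on the GC content and length of NACA's longest transcript (54.7%, 6629 bases). Which transcript the cells made was not measured.

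BTF3 was at 610.7, 630.9 and 557.5 CPM in DMSO and 585.0, 555.4 and 545.6 CPM in doxycycline. Again DMSO replicate 3 lay among the doxycycline samples. For BTF3 the log2 fold change was -0.094 (SE 0.0532, edgeR adjusted p = 0.192), and BTF3 passed as lower without DMSO replicate 3, at -0.15 (edgeR adjusted p = 0.0349), while it was at -0.058 without DMSO replicate 2 (edgeR adjusted p = 0.455). The log2 ratio of NACA to BTF3 was 0.0013 ± 0.112 in DMSO and 0.0021 ± 0.0947 in doxycycline (SD over 3 samples; exact permutation p = 1), so no shift between the 2 subunits was detectable within this spread.

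PABPC1 encodes the main cytoplasmic poly(A) binding protein, which joins the tail of a message to its capped start. It stood at 4389, 4570 and 5136 CPM in DMSO and at 4099, 4498 and 4182 CPM in doxycycline. Doxycycline replicate 2 was above DMSO replicate 1, so the groups overlapped, and DMSO replicate 3 was the highest sample. Its log2 fold change was -0.14 (SE 0.0609, edgeR adjusted p = 0.0823), or 0.831 to 0.989 times the DMSO level. PABPC1 passed as lower with no filter on low counts (edgeR adjusted p = 0.00535), in DESeq2 (adjusted p = 0.0362), without DMSO replicate 1 (edgeR adjusted p = 0.0401) and without DMSO replicate 2 (edgeR adjusted p = 0.0454). Without DMSO replicate 3 it was at -0.074 (edgeR adjusted p = 0.348).

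In the authors' deposited table, 3 of the members have an adjusted p under 0.05, all lower: EEF1B2 at -0.14 (adjusted p = 0.0122, DESeq2), EEF1E1 at -0.36 (adjusted p = 0.0139) and PABPC1 at -0.15 (adjusted p = 0.0371). Of all genes with an adjusted p in the authors' deposited table, 25.4% pass, 15.6% as lower. The other 6 tested members have adjusted p-values from 0.0952 for TPT1 to 0.877 for EEF1D in the authors' deposited table, and EEF1G has none. The same counts underlie both comparisons.

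Set against EEF1A1 within each library, EEF1E1 had a lower ratio in every doxycycline sample than in every DMSO sample, by -0.33 on the log2 scale (exact permutation p = 0.1, 0.2 adjusted over 10 ratios). After the GC content and length correction the 2 genes lay closer, EEF1E1 at -0.051 and EEF1A1 at 0.024. The ratios of EEF1B2 (-0.11), PABPC1 (-0.12), TPT1 (-0.076) and EEF1D (0.047) to EEF1A1 overlapped between groups, with exact permutation p-values of 0.2, 0.5, 0.3 and 0.4.

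The fold changes of these genes are small and so is their error. SE values were between 0.049 and 0.0885 on the log2 scale, and intervals of all 8 tested members other than EEF1E1 lay within 0.831 to 1.16 times the DMSO level. Of the 470 tested genes with a mean CPM at or above that of EEF1D, 202 (43.0%) were called, 57 higher and 145 lower, and none of the 8 members among them was. The median size of the log2 fold change was 0.11 over those 470 genes and 0.096 over the 9 members.

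**Figure D3:**
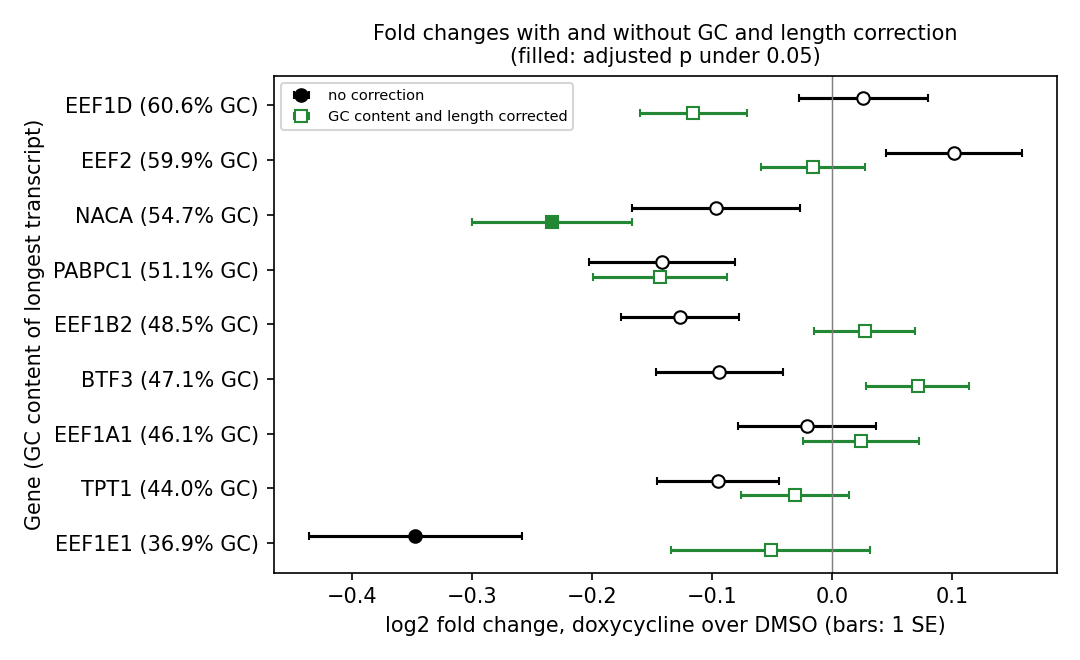
Log2 fold change, doxycycline over DMSO, with 1 SE, for the 9 tested genes before and after correction for GC content and length, with the GC content of each gene's longest transcript; filled symbols have an adjusted p under 0.05. Before correction EEF1E1 (-0.35) is filled; after correction EEF1E1 moves to -0.051 and NACA (-0.23) is filled.

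Fold changes in these libraries went with GC content. When tested genes were ranked by GC content, the 3008 genes at the low end had a median log2 fold change of -0.11 and the 3008 at the high end a median of 0.15, which became 0.012 and 0.019 after correction. The members with values above 0, EEF1D and EEF2, have GC contents of 60.6% and 59.9%, the highest of the 9, and EEF1E1 has the lowest. After correction EEF1D was at -0.12 (edgeR adjusted p = 0.0664), EEF2 at -0.016, EEF1A1 at 0.024, EEF1B2 at 0.027 and BTF3 at 0.071, each with its sign turned, while PABPC1 stayed at -0.14. The corrected fit called 1 of 9 members, NACA, beside 22.0% of 15036 genes, and its median over the members was -0.031. Each gene was corrected by its longest transcript, which need not be the one that gave the counts, for NACA as for the others. The correction also removes true changes that follow GC content, and which value is nearer to the cells was not tested.

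Near-identical copies could draw reads from these messages. For EEF1A1 the count table names 40 pseudogenes, 24 of them with counts, which held 1.19% to 1.40% of the combined count per sample. The most counted, EEF1A1P5, was at 83.3 ± 6.13 CPM in DMSO and 77.6 ± 3.57 CPM in doxycycline, a log2 difference of -0.10 (edgeR adjusted p = 0.196). Copies of the other tested members held at most 1.08%. Adding them to their parent gene changed no member's call.

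Genes that modify or assist the elongation factors were in part lower. Of 20 other elongation genes 19 were tested, with 6 lower, 0 higher and a median of -0.15. The counts of this list and those below stand beside 15.5% of all tested genes lower and 13.8% higher. With GC content and length corrected 5 of the 19 were lower and 0 higher, with a median of -0.099. EIF5A, the hypusine-bearing factor that frees stalled ribosomes, fell from 715 ± 36.2 to 557 ± 10.6 CPM (log2 fold change -0.36, SE 0.0509, edgeR adjusted p = 1.37e-05). METTL13, a methyltransferase of eEF1A, fell by 0.21 and DPH2, which helps build the diphthamide of eEF2, fell by 0.19 on the log2 scale. EEF2K, the kinase that inhibits eEF2, was at 18.3 ± 0.219 and 17.9 ± 0.666 CPM (-0.030, edgeR adjusted p = 0.790; 0.018 under upper-quartile scaling and 0.014 under library size alone).

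**Figure D4:**
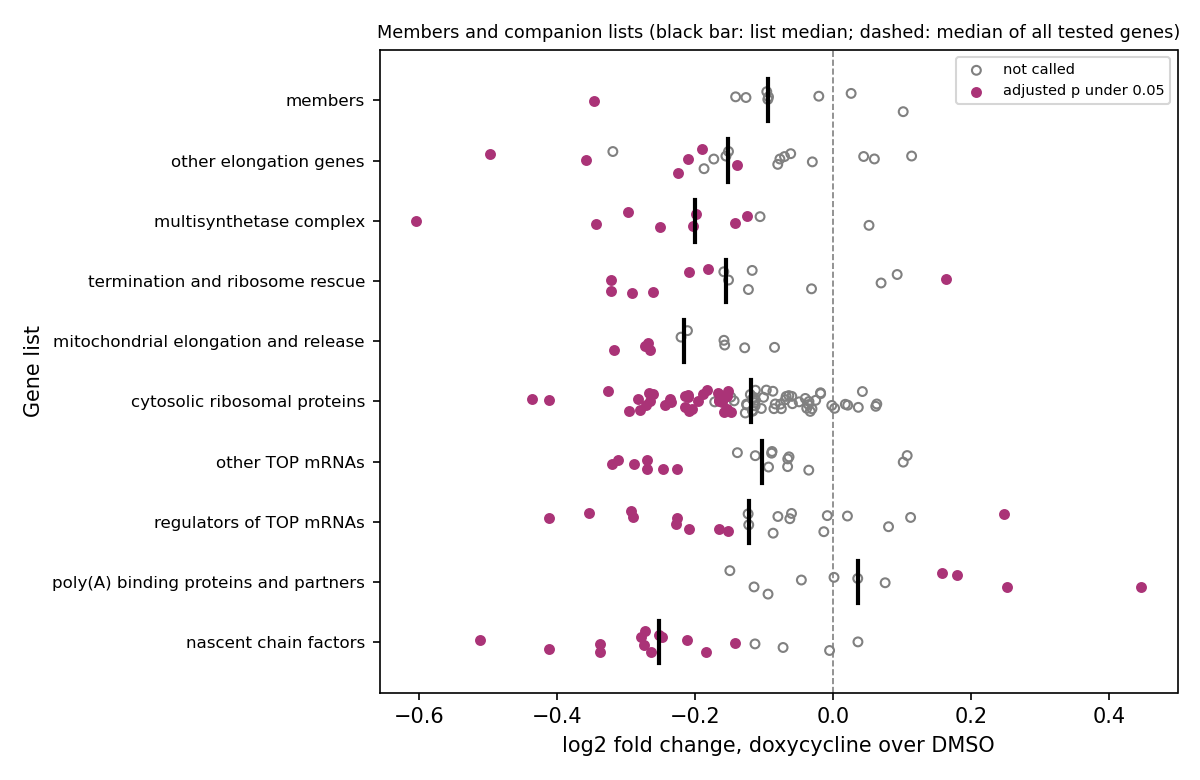
Log2 fold change, doxycycline over DMSO, of each tested gene (points) in the members and in 9 lists of related genes, with the median of each list as a bar and called genes in colour. Medians run from -0.25 for nascent chain factors to 0.036 for poly(A) binding proteins and partners, and the members lie at -0.095.

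The multi-tRNA synthetase complex, in which the EEF1E1 protein sits, had 8 of 10 genes lower and 0 higher, with a median of -0.20. DARS, the aspartyl-tRNA synthetase, fell from 91.2 ± 9.72 to 59.9 ± 4.62 CPM (-0.60, SE 0.0663, edgeR adjusted p = 4.43e-07). RARS fell by 0.34 and the scaffold AIMP1 by 0.30 on the log2 scale. With GC content and length corrected, 5 of the 10 were lower, with a median of -0.10, and AIMP1 at -0.088 was not among them (edgeR adjusted p = 0.207).

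Nascent chain factors, the list closest to NACA and BTF3, had 13 of 17 tested genes lower and 0 higher, with a median of -0.25. BTF3L4, the paralogue of BTF3, fell from 71.2 ± 3.39 to 56.3 ± 1.17 CPM (-0.34, SE 0.0547, edgeR adjusted p = 6.11e-05). SRP9, of the signal recognition particle, fell by 0.41 and NAA15, of an N-terminal acetyltransferase, by 0.34 on the log2 scale. With GC content and length corrected 9 of the 17 were lower, with a median of -0.13, and SRP9 was at -0.15. The log2 ratio of BTF3L4 to BTF3 counts differed by -0.25 with no overlap (exact permutation p = 0.1, 0.2 adjusted over 10 ratios); this pair was chosen after its values were seen.

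Among poly(A) binding proteins and partners, the list of PABPC1, 4 of 11 tested genes were higher and 0 lower, with a median of 0.036. PABPC1L, a paralogue of PABPC1, rose from 24.9 ± 1.66 to 33.9 ± 1.59 CPM (0.45, SE 0.0667, edgeR adjusted p = 2.51e-05). TOB2, an adaptor of deadenylation, rose by 0.18, PAN2, a deadenylase subunit, by 0.16 and PAIP2B, an inhibitor of poly(A) binding proteins named after its value was seen, by 0.25 on the log2 scale. With GC content and length corrected, 3 of the 11 were higher and 0 lower, and the median was 0.10. In that fit TOB2 (0.10, edgeR adjusted p = 0.102) and PAN2 (0.11, edgeR adjusted p = 0.0668) did not pass. PAN2 also lost its call with no filter and without DMSO replicate 1 or any 1 doxycycline replicate, and TOB2 without DMSO replicate 1 or doxycycline replicate 2. The list's count of higher genes ran from 1, without DMSO replicate 1, to 4 with 1 sample left out. PABPC4 was at 315 ± 10.5 and 315 ± 14.5 CPM (0.0012, edgeR adjusted p = 0.989), and the ratio of PABPC4 to PABPC1, also chosen after its values were seen, differed by 0.14 on the log2 scale (exact permutation p = 0.1, 0.2 adjusted).

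The 2 lists of other messages known as TOP messages were lower in part. Of 78 tested cytosolic ribosomal protein genes 32 were lower and 0 higher, with a median of -0.12; RPL34 fell by 0.44, RPL21 by 0.41 and RPS13 by 0.28 on the log2 scale. With GC content and length corrected 16 were lower and 1 higher, with a median of -0.044. The count of lower genes ran from 19 to 43 with 1 sample left out, with 43 when DMSO replicate 3 was dropped, 19 when DMSO replicate 2 was dropped, and 21 when either doxycycline replicate 2 or 3 was. Of 18 other TOP messages 7 were lower and 0 higher, with a median of -0.10, among them EIF3E (fell by 0.32; -0.093 and not called after the correction), NPM1 (fell by 0.31) and the host gene SNHG1 (fell by 0.27). With GC content and length corrected 5 of these 18 were lower and 2 higher, with a median of -0.013. The calls in both lists are not evidence on the members, whose own values are given above.

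Across all tested genes with a start in the RefSeq table, a TOP-like start went with little difference in the median or in the percent called (34.1% with one, 32.8% without). The 721 genes that had one included 86 higher and 160 lower, with a median of -0.034, and the 8940 without had 1282 higher and 1651 lower, with a median of -0.016. The 721 include members and ribosomal protein genes. With these left out, 668 genes had 86 higher and 140 lower, with a median of -0.028. With a run of at least 7 pyrimidines, 386 genes had a median of -0.027.

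Regulators of TOP messages had 9 of 21 genes lower and 1 higher, with a median of -0.12. The count of lower genes ran from 6 to 8 with 1 sample left out. SSB, the La protein, fell by 0.41, EIF4E, which binds the cap, by 0.35 and CNBP by 0.29 on the log2 scale. TSC2, a brake on mTOR and the 1 gene higher, named after its value was seen, rose by 0.25, and it did not pass with GC content and length corrected (0.039, edgeR adjusted p = 0.543), where 10 genes were lower and 0 higher. LARP1 stood at 530 ± 32.8 and 499 ± 9.10 CPM (-0.087, edgeR adjusted p = 0.214), and with GC content and length corrected it passed as lower at -0.17 (edgeR adjusted p = 0.00756). MTOR stood at 236 ± 10.2 and 249 ± 6.80 CPM (0.080, edgeR adjusted p = 0.232), and its sign turned with that correction (-0.052).

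The steps after elongation were lower in part as well. Of 14 termination and ribosome rescue genes 6 were lower and 1 higher, with a median of -0.16. The 1 gene higher was GTPBP1, named after its value was seen. ABCE1, which splits ribosomes, fell by 0.32, DENR by 0.32 and HBS1L by 0.26 on the log2 scale. With GC content and length corrected 5 were lower and 0 higher, and GTPBP1 was at 0.024 (edgeR adjusted p = 0.714). Mitochondrial elongation and release had 4 of 10 genes lower and 0 higher, with a median of -0.22. GFM1, the mitochondrial translocase, fell by 0.27, C12orf65 by 0.27 and TSFM by 0.32. With GC content and length corrected 5 of these 10 were lower and 0 higher, with a median of -0.13. Over the 9 lists together, 85 of 198 tested genes were lower and 6 higher, beside 15.5% of all tested genes lower and 13.8% higher. Of the 470 tested genes at or above the level of EEF1D, 145 were lower and 57 higher. That set includes list genes such as RPL34, and other list genes such as METTL13 lie below its level. It is therefore not a separate background for the lists. With GC content and length corrected 60 list genes were lower and 6 higher, beside 11.3% of all genes lower and 22.0% called in either direction.

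The genes whose pattern over the 6 samples was closest to the mean pattern of the tested members were TMEM183A, STAU1 and CDK2AP2. Their root mean square difference from it was 0.0114, 0.0121 and 0.0141 in log2 CPM, among the 6103 genes whose mean log2 CPM was 5 or more. None of the 3 was called by edgeR, with adjusted p-values of 0.111, 0.161 and 0.268.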

How the data were processed

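Strand-specific paired-end libraries of total RNA were read on the DNBSEQ platform (labels' protocols). The authors deposited raw read counts per gene; STAR 2.5.2a, featureCounts, DESeq2 1.12.4 and the build hg19 are named per the submitters' processing notes, without roles, and the annotation, the strand setting and the treatment of shared or multi-mapping reads are not given in the sources used here. A second file, the authors' deposited table of their comparison, holds a mean normalized signal, log2 fold changes with standard errors, a Wald score, and p-values per gene.

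Columns were mapped to samples by name. Genes were kept with edgeR's filterByExpr (15492 genes, at least 99.9% of each library's counts), scaled with TMM and compared with edgeR's quasi-likelihood test on all 6 samples (edgeR 4.0.16, R 4.3.3), with Benjamini-Hochberg adjustment over all tested genes and calls under 0.05. The SE is the log2 fold change over the square root of F, and intervals are at 95%. Ratios and shares were compared with exact permutation tests. The GC content and length correction used the longest GENCODE 29 transcript of each gene (GRCh38, matched by identifier for 97.1% of tested genes). Splines with 5 degrees of freedom per library served as offsets. The test was run first on simulated data. Replicates of a group differed by more than sampling noise, with chi-square over its degrees of freedom from 2.71 to 7.11.

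Alternatives were other scalings, no filter, DESeq2 1.42.0, the correction, a replicate block, added pseudogenes and samples left out. Members and lists were chosen with earlier results of these data known. The text names all members, the 3 called genes with the smallest p in each list, LARP1, MTOR, EEF2K and EIF5A, and the 3 genes of closest pattern; others are marked. Planned ratios to EEF1G (4) were not run because it had 1 to 5 counts, and EEF1A1 or a partner replaced it; these, the paralogue ratios, the call by non-overlapping groups and the start rule of 7 were chosen after seeing the data.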

Additional observations from a re-analysis of the deposited data

How the results depend on the processing

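The call of EEF1E1 held in every alternative run except the GC content and length correction, alone (-0.051) or with the replicate block (-0.050). Members called lower numbered 1 in the reported fit, 3 with no filter and 3 with DESeq2, 2 when groups that do not overlap counted as calls, and 1 to 3 when 1 sample was left out; members called higher numbered 0, 1 with library size alone, and 0 to 1 with 1 sample left out. Genes of the related lists called higher numbered 6, and 2 to 8 with 1 sample left out, the low values being 2 without DMSO replicate 1 and 3 without doxycycline replicate 1. Over all genes, 1338 were higher with DESeq2 and 1585 lower with upper-quartile scaling. The difference in the members' share of counts ran from -0.00304 (without DMSO replicate 1) to 0.0301 points with 1 sample left out. The cause of these shifts was not tested. Runs with 1 sample left out also have fewer samples, and that was not told apart from which sample was dropped.

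Signs turned as follows. EEF1A1 was at 0.027 under upper-quartile scaling, 0.023 under library size alone, 0.024 with the correction, 0.026 with the correction and block, 0.018 without DMSO replicate 2 and doxycycline replicate 1 together, and -0.053 to 0.030 with 1 sample left out. With the correction alone and with the block added, EEF1B2 was at 0.027 and 0.026, EEF1D at -0.12 and -0.11, EEF2 at -0.016 and -0.015, BTF3 at 0.071 and 0.072 and MTOR at -0.052 and -0.051. EEF1D ran from -0.032 to 0.059 with 1 sample left out. EEF2K was at 0.018 under upper-quartile scaling, 0.014 under library size alone, and -0.051 to 0.00093 with 1 sample left out. The log2 ratio of NACA to BTF3 ran from -0.057 to 0.055.

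Replicate numbers are shared between groups, and the deviations of same-numbered samples correlated at r = -0.058, -0.23 and 0.086 across genes. Pairs with unlike numbers ran from -0.28 (DMSO replicate 3 with doxycycline replicate 1) to 0.32 (DMSO replicate 2 with doxycycline replicate 1). With 3 samples per group the deviations are tied to each other, so these values cannot show whether samples shared a culture or batch. With the replicate block, 2006 genes were higher and 2200 lower, and 1 member, EEF1E1, was called lower (-0.35, edgeR adjusted p = 0.00631). Scaling moved the median of all genes by at most 0.048. EEF1G had too few counts for any comparison, and the cause of its low count was not tested.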
